A study of Mus musculus with 12 samples.

Results

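The genes described here are 8 enzymes and cofactors that write, copy or remove DNA methylation, or that methylate lysine residues of histone H3: Dnmt1, Uhrf1, Dnmt3a, Dnmt3b, Tet1, Tet2, Tet3 and Ezh2. They were chosen by name, with earlier results of these data known. They make up 8 of the 25078 genes of the deposited count table, and all 8 passed the filter on low counts. RNA-Seq was performed on donor T cells that had infiltrated the liver 6 days after allogeneic hematopoietic cell transplantation (HCT). Lethally irradiated WT BALB/c mice were given T cell–depleted bone marrow from WT C57BL/6 mice together with C57BL/6 donor T cells of 1 of 3 genotypes. WT donors carried no deletion. STAT3-/- donors (STAT3ko in the labels) carried a floxed Stat3 gene and a CD4-Cre transgene, which deletes in T cells under the Cd4 promoter. STAT3-/-PD-1-/- donors (STAT3ko PD-1ko) carried the same deletion together with germline loss of PD-1. Donor T cells were sorted by H-2Kb and TCRβ staining and split into subsets by CD4 and CD8 staining. This gave 6 groups of 2 libraries each, 12 in all. Cells of 3 recipients were pooled for a library, per the study's supplement. The spread between 2 libraries is thus that between pools, together with whatever else differs by library number. The ages of the animals are not given in the sources used here.

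DNMT1 copies methylation onto the new strand behind the replication fork, and UHRF1 recruits it there by reading hemimethylated CpG sites. DNMT3A and DNMT3B set methylation at sites that carried none, and the TET enzymes oxidize 5-methylcytosine, the first step of its removal. EZH2 is the catalytic subunit of Polycomb repressive complex 2 (PRC2), which trimethylates lysine 27 of histone H3 (H3K27me3). DNMT1, UHRF1 and EZH2 are known to be more abundant in dividing cells, and DNMT3A, TET2 and EZH2 are known regulators of effector and memory T cell differentiation. Only RNA was measured in these libraries, and neither DNA methylation nor H3K27me3 was.

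The 12 libraries held between 21676125 and 24551477 counts, and levels are given as CPM, that is counts scaled to a common library size, here after normalization by the trimmed mean of M values (TMM). The 2 targeted genes were checked first. Stat3 was 365 and 467 CPM in the 2 WT CD4+ libraries, 139 and 165 in STAT3-/- and 157 and 221 in STAT3-/-PD-1-/-. In CD8+ libraries of the same order it was 391 and 387, 148 and 136 and 154 and 237 CPM. Every deleted library lay below every WT library, and Stat3 counts did not reach 0. Pdcd1, which encodes PD-1, was 55.2 and 26.2 CPM in STAT3-/-PD-1-/- CD4+ libraries against 244 and 235 in WT and 259.8 and 325 in STAT3-/-. It was 93.9 and 66.1 CPM in STAT3-/-PD-1-/- CD8+ libraries against 371 and 309 and 421 and 455. Both genes followed the labels. In STAT3-/- against WT cells the Stat3 difference was log2 -1.46 in each subset, yet it did not reach an adjusted p under 0.05 by edgeR (0.0550 in CD4+ and 0.108 in CD8+ cells).

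Cd4 and Cd8a also followed the labels. Cd4 was between 1252 and 1899 CPM in CD4+ libraries and at most 2.76 in CD8+ libraries, whereas Cd8a was between 594 and 1347 CPM in CD8+ libraries and at most 5.68 in CD4+ libraries, the highest being STAT3-/-PD-1-/- CD4+ library 2. Of 3 genes listed for the CD8 lineage, 2 were higher in CD8+ than in CD4+ cells of each genotype by edgeR, and 1 did not pass. The levels of lineage genes moved with the genotype. In STAT3-/-PD-1-/- against WT CD8+ cells 2 of these 3 were lower, and 1 was above 0 and did not pass. Cd8a was 597 and 594 CPM in STAT3-/-PD-1-/- CD8+ libraries and 1015 to 1347 in the other 4 (log2 -1.09 ± 0.12 (SE), adjusted p = 0.00414 against WT by edgeR), Cd8b1 was also lower (-0.87, adjusted p = 0.00531), and Cd4 was lower in STAT3-/-PD-1-/- CD4+ cells (-0.52, adjusted p = 0.0375). Among 7 T cell genes the summed level was 3506 to 3660 CPM in STAT3-/-PD-1-/- CD4+ libraries and 4181 to 4447 in the other CD4+ libraries, and 3035 to 3050 against 3687 to 4062 CPM in CD8+ libraries, with Lck the most abundant. Genes of other cells were low. The 14 hepatocyte genes together gave 0.890 to 3.67 CPM with a highest count of 33 (Apoa2). Of 6 erythroid genes 5 were at 0 in all libraries. Of 6 B cell genes, Ms4a1 was at 0 throughout and Cd79b reached 334 counts. The 11 myeloid genes summed to 20.3 to 28.7 CPM in STAT3-/-PD-1-/- libraries and to 48.1 to 106.6 CPM in the others, with Itgam, which activated T cells also express, the most abundant. Among 6 liver endothelial genes Pecam1, also a T cell gene, was the most abundant. Library 2 was above library 1 in all 6 groups in the hepatocyte sum (2.28 against 0.890 CPM in STAT3-/- CD4+ cells). The same held for the mean log2 CPM of the endothelial genes (-0.46 against -2.06 in WT CD4+ cells). That of the myeloid genes was higher in library 2 of the WT and STAT3-/- groups (0.74 against -1.42 in WT CD4+ cells). In bulk libraries fewer cells of a type and less RNA per cell cannot be told apart, and the part that these shifts have in the results below was not tested.

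Levels were compared between genes only per kilobase of exon (CPM per kb). Dnmt1 was the most abundant of the 8, between 53.7 and 140.3 CPM per kb over the 12 libraries. Ezh2 (35.1 to 102.6) and Uhrf1 (28.0 to 88.9) came next, Tet3 (11.1 to 24.3), Tet2 (10.7 to 20.4) and Dnmt3a (7.92 to 11.9) lay lower, and Dnmt3b (3.88 to 7.48) and Tet1 (0.121 to 0.315) were the lowest. Dnmt1 exceeded Ezh2 in 12 of 12 libraries, Ezh2 exceeded Uhrf1 in 10, and Uhrf1 exceeded Tet3 in 12. Tet3 exceeded Tet2 in 9 of 12 libraries, and every lower step held in 12. The neighbours Ezh2 and Uhrf1, and Tet3 and Tet2, were therefore not separated by more than their spread. Tet1 rested on 39 to 101 counts per library, whereas each of the other 7 genes had at least 373.

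**Figure D1:**
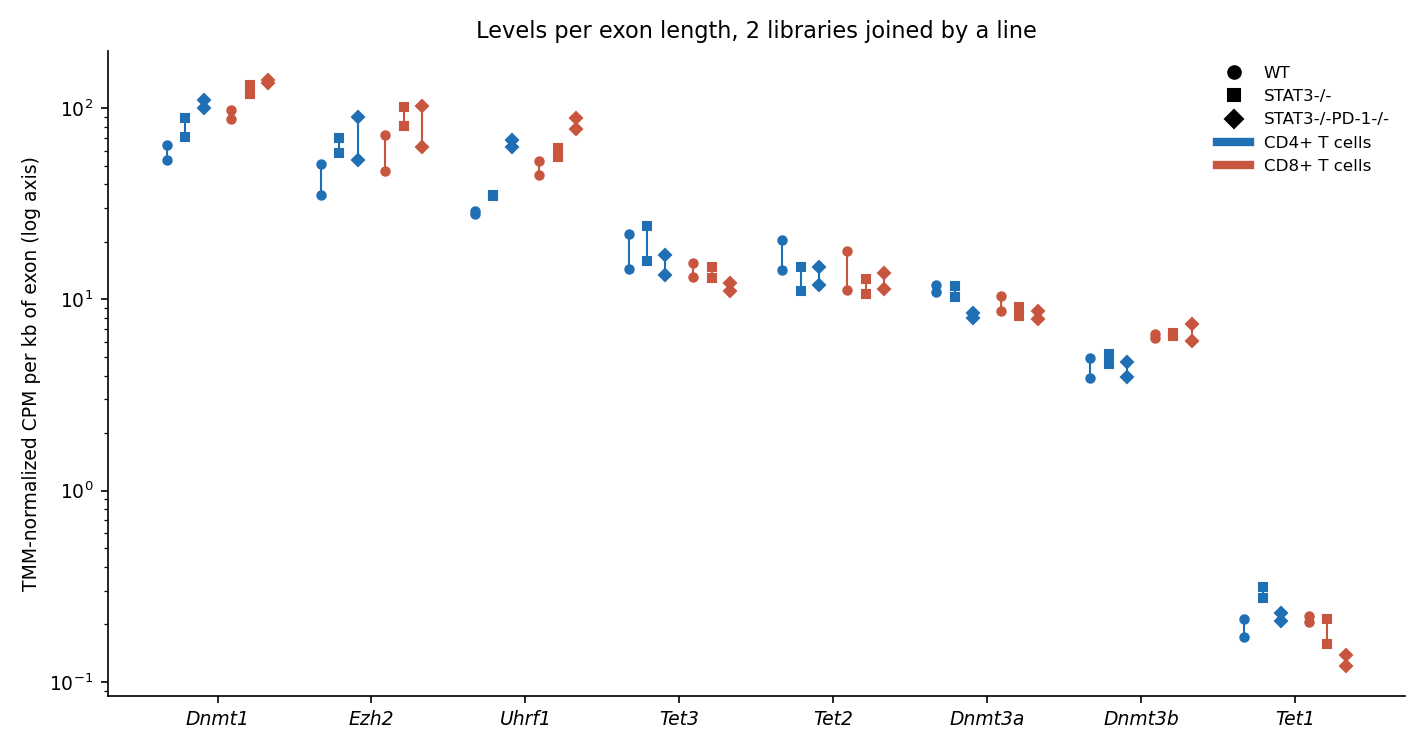
Length-scaled level of the 8 genes in the 12 libraries (CPM per kb of exon, log axis), 1 point per library, by subset and donor genotype. Dnmt1 sits highest, between 53.7 and 140.3, and Tet1 lowest, between 0.121 and 0.315.

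The promoters of Dnmt1, Uhrf1 and Ezh2 are shown because these 3 of the 8 genes hold an E2F motif, the binding sequence of transcription factors that switch on S phase genes. RefSeq start sites (assembly GRCm38.p6) gave 13 windows for the 8 genes, each 250 bases before to 50 bases after a start, out of 32851 windows in the table. An E2F motif (TTTGGCGC, TTTCCCGC, TTTCGCGC or TTTGCCGC, either strand) was found in 3 of the 13 windows, 1 each of Dnmt1, Uhrf1 and Ezh2, and in 2.26% of all windows. Of the DNA replication genes described later, 23 were matched to the table and 10 of them held it in some window, as did 2.6% of the 27025 genes of the table. A STAT motif (TTCNNNGAA) was found in none of the 13 windows and in 8.3% of all windows. An E-box (CACGTG), present in 7.15% of all windows, was found in 1, of Dnmt3a. None of these motifs overlap one another in the stretches printed. In the sequences that follow, given 5′ to 3′ on the strand of the gene, capitals mark the E2F letters and all other bases are in lower case. They are the 250 bases before a Dnmt1 start, on the minus strand at chr9:20952624-20952873, the 250 bases before a Uhrf1 start, on the plus strand at chr17:56304063-56304312, and 30 bases across the Ezh2 start, 19 before it and 11 from it onward, on the minus strand at chr6:47595020-47595049.
Dnmt1: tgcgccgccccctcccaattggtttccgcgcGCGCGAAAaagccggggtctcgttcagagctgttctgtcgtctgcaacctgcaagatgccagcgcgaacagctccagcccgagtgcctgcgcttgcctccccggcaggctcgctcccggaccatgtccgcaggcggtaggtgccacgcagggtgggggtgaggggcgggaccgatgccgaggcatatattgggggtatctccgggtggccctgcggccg
Uhrf1: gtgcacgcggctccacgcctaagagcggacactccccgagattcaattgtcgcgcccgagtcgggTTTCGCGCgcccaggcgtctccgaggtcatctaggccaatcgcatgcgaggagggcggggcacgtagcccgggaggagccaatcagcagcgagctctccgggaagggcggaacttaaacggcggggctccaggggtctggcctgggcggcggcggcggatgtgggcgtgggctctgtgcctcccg
Ezh2: cgatggcgattgggttgctgcgTTTGGCGC

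The Dnmt1 motif begins at position -219 from the start and reads on the opposite strand, so that it appears here as its reverse complement, and the same window holds another E2F match 34 bases after the start. The Uhrf1 motif begins at position -185, and that of Ezh2 begins at base 4. These stretches hold 26 CpG sites for Dnmt1 and 30 for Uhrf1, where the 13 windows held 2 to 51 in their upstream bases (51 for Tet2) and the median of all windows was 6. Each version of the E2F motif holds a CpG itself, so the share over all windows is not one over windows as rich in CpG as these. The latter was not counted. A match is a description of the letters, and binding was not measured.

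Dnmt1 and Uhrf1, the maintenance pair, were higher in STAT3-/-PD-1-/- T cells than in WT T cells in both subsets. Dnmt1 (chr9:20907206-20959888, minus strand, mm10) was 339 and 404 CPM in WT CD4+ libraries, 449.6 and 559 in STAT3-/- and 695 and 636 in STAT3-/-PD-1-/-. In CD8+ libraries it was 616 and 553, 836 and 755 and 888 and 852 CPM in the same order. The 3 genotypes did not overlap in either subset, with WT lowest and STAT3-/-PD-1-/- highest. The share of all genes with this pattern was not counted. As compared with WT, STAT3-/-PD-1-/- cells had 1.799-fold the Dnmt1 level in CD4+ cells (log2 0.85 ± 0.17 (SE), adjusted p = 0.0199, quasi-likelihood F test of edgeR, p adjusted by Benjamini-Hochberg) and 1.48-fold in CD8+ cells (log2 0.57 ± 0.11 (SE), adjusted p = 0.0162). The change from WT to STAT3-/- cells was 0.44 ± 0.17 and 0.44 ± 0.11 (log2, SE), and did not pass the test by edgeR (adjusted p = 0.407 and 0.276). The step from STAT3-/- to STAT3-/-PD-1-/- cells was 0.41 in CD4+ and 0.13 in CD8+ cells (adjusted p = 0.151 and 0.443). Ordered over the 6 groups, Dnmt1 was lowest in WT CD4+ and highest in STAT3-/-PD-1-/- CD8+ cells, and STAT3-/- CD4+ and WT CD8+ libraries were the 1 pair of neighbours that overlapped.

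Uhrf1 (chr17:56303337-56323486, plus strand), the reader of hemimethylated DNA, had the largest difference of the 8 between STAT3-/-PD-1-/- and WT cells in both subsets. In CD8+ cells Tet1 was close in size (log2 -0.72 ± 0.29, SE). Without 1 library Uhrf1 spanned 0.63 to 0.89 and Tet1 -0.83 to -0.64 there, so that order is not settled. Uhrf1 was 106 and 102 CPM in WT CD4+ libraries, 126 and 128 in STAT3-/- and 229.6 and 249 in STAT3-/-PD-1-/-. In CD8+ libraries it was 193 and 164, 225 and 203 and 283 and 324 CPM. No 2 of the 6 groups overlapped in Uhrf1, and in both subsets the double-deficient libraries were the highest. How many of all genes have 6 such groups was not counted. Between 2 genotypes of a subset, 38.2% to 63% of genes did not overlap. The difference from WT was 2.32-fold in CD4+ cells (log2 1.21 ± 0.14 (SE), adjusted p = 0.00435 by edgeR) and 1.700-fold in CD8+ cells (log2 0.77 ± 0.14 (SE), adjusted p = 0.0136). The step from STAT3-/- to STAT3-/-PD-1-/- cells also passed, with log2 0.93 ± 0.14 (SE), adjusted p = 0.0118 in CD4+ and log2 0.50 ± 0.14 (SE), adjusted p = 0.0457 in CD8+ cells. The step from WT to STAT3-/- was 0.29 and 0.26 (adjusted p = 0.540 and 0.549).

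These 2 were the members that passed with the 6 libraries of a subset in 1 edgeR fit. In CD4+ cells 2 of 8 passed in STAT3-/-PD-1-/- against WT, where 12.9% of all tested genes did, 1 of 8 (Uhrf1) passed against STAT3-/- (11.1%), and 0 of 8 passed in STAT3-/- against WT (0.334%). In CD8+ cells the counts were 2 of 8 (17.2% of all genes), 1 of 8, again Uhrf1 (16.8%), and 0 of 8 (0.0583%). In each comparison of STAT3-/- with WT, 1 member was under an unadjusted p of 0.05 by edgeR, Dnmt1, as were 10.5% of all genes in CD4+ and 11% in CD8+ cells. DESeq2 called 0 of 8 in CD4+ cells, where it called 2.27% of genes, and 1 of 8 in CD8+ cells, where it called 1.97%: Dnmt1 (adjusted p = 0.0491). With the library number as a block in edgeR, 4 of 8 passed in STAT3-/-PD-1-/- against WT CD4+ cells (26% of genes), with Ezh2 and Dnmt3a added, 2 of 8 against STAT3-/- CD4+ cells (26%), with Dnmt3a added, and 3 of 8 against WT CD8+ cells (24.7%), with Ezh2 added. Groups that did not overlap were common among all genes. STAT3-/- and WT libraries did not overlap in 4 of 8 members in CD4+ cells (38.2% of genes) and 3 of 8 in CD8+ cells (43.5%). STAT3-/-PD-1-/- and WT libraries did not overlap in 4 of 8 (59%) and 5 of 8 (59.7%), and STAT3-/-PD-1-/- and STAT3-/- libraries in 4 of 8 (59.1%) and 4 of 8 (63%).

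With 2 libraries a group, leaving out 1 left its group with 1 library and the fit with fewer residual degrees of freedom. Fewer of all genes passed as well, so a lost call does not show that a single pool carried weight. Without 1 library the log2 difference from WT spanned 0.72 to 0.97 for Dnmt1 and 1.14 to 1.27 for Uhrf1 in CD4+ cells. In CD8+ cells it spanned 0.47 to 0.65 and 0.63 to 0.89. The Dnmt1 call against WT was lost in CD4+ cells without WT library 1 (adjusted p = 0.0877 by edgeR), STAT3-/-PD-1-/- library 1 (0.118) or STAT3-/-PD-1-/- library 2 (0.116), and in CD8+ cells without WT library 2 (0.0979) or either STAT3-/-PD-1-/- library (0.0829 and 0.0901). The Uhrf1 call against WT was lost in CD4+ cells without STAT3-/-PD-1-/- library 2 (0.0576), and in CD8+ cells without WT library 2 (0.0750) or STAT3-/-PD-1-/- library 2 (0.0947). Against STAT3-/- it was lost without either STAT3-/-PD-1-/- library in CD4+ cells (0.0580 and 0.131) and without any 1 of the 4 libraries in CD8+ cells. The direction was the same in each of these fits.

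**Figure D2:**
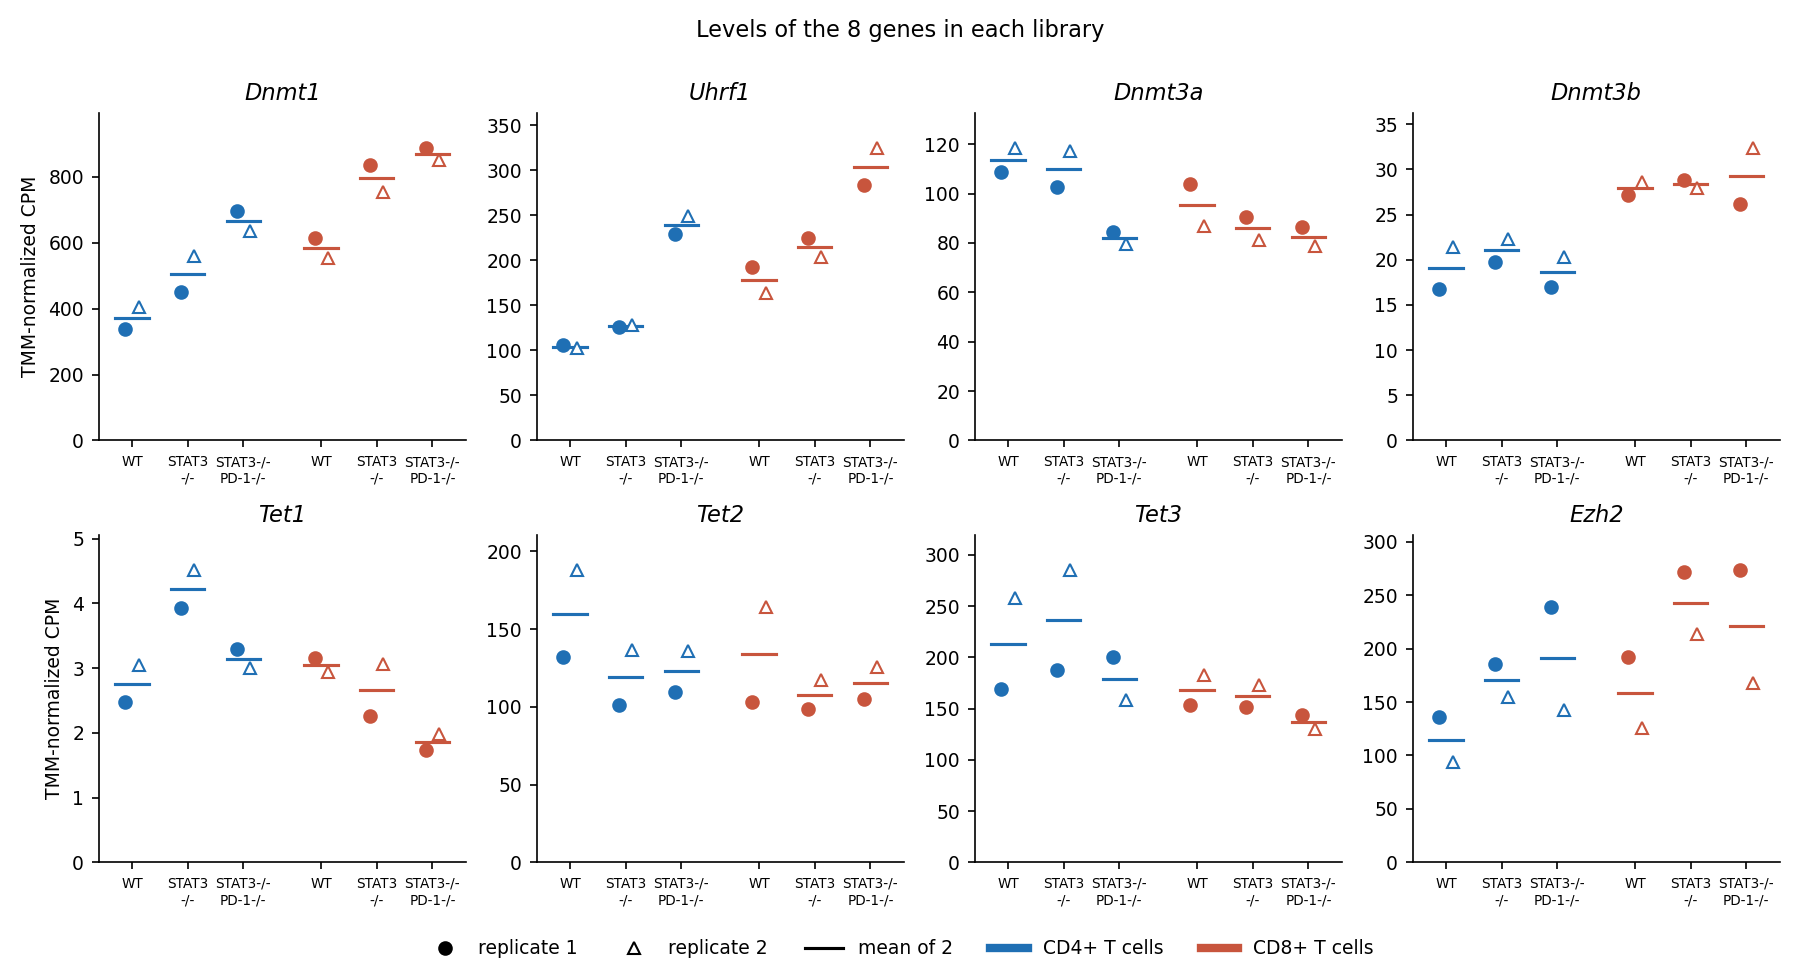
TMM-scaled CPM of each gene (linear axes that start at 0) in the 12 libraries by donor genotype and subset, 1 point per library and a bar at the mean of 2. For Uhrf1 the STAT3-/-PD-1-/- points lie at 229.6 and 249 CPM (CD4+) and 283 and 324 CPM (CD8+), above all other points of their subset.

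The partners of maintenance methylation moved in part. Of 9 such genes, 3 were higher in STAT3-/-PD-1-/- than in WT CD4+ cells, as were 7.21% of all genes, and 3 in CD8+ cells (9.01% of all genes), and none was lower (5.65% and 8.21%). They were Hells, a chromatin remodeler of the SNF2 family, Cdca7, which recruits it, and Lig1, the ligase that joins Okazaki fragments, in each subset. Cdca7 was 27.5 and 27.6 CPM for WT, 32.2 and 30.8 for STAT3-/- and 69.3 and 67.2 for STAT3-/-PD-1-/- CD4+ libraries (log2 1.31 ± 0.14 (SE), adjusted p = 0.00408 against WT by edgeR), and 0.99 in CD8+ cells (adjusted p = 0.00516). Lig1 differed by 1.30 and 0.94 (adjusted p = 0.00395 and 0.0140), and Hells by 1.05 and 0.94 (adjusted p = 0.0250 and 0.0118). The other 6, among them Uhrf2, the paralog of Uhrf1 (0.17 and 0.22), and Usp7, the deubiquitinase that binds DNMT1 (0.12 and 0.21), did not pass. The median of the 9 was 0.47 in CD4+ and 0.29 in CD8+ cells, where that of all genes was -0.01 and 0.00.

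The de novo methyltransferases did not pass between genotypes in the edgeR fits of 6 libraries. Dnmt3a (chr12:3806980-3914443, plus strand) was 109 and 118 CPM in WT CD4+ libraries, 103 and 117 in STAT3-/- and 84.5 and 79.5 in STAT3-/-PD-1-/-, the 2 double-deficient libraries lying below the other 4. In CD8+ libraries it was 104 and 87.02, 90.4 and 81.3 and 86.4 and 78.7 CPM, and the STAT3-/- and STAT3-/-PD-1-/- ranges overlapped. Its differences from WT in STAT3-/-PD-1-/- cells, -0.46 ± 0.15 in CD4+ and -0.21 ± 0.14 in CD8+ cells (log2, SE), did not pass in that fit (adjusted p = 0.0814 and 0.320). DESeq2, which called 18.1% of genes there, called the CD4+ difference (adjusted p = 0.0302), and so did edgeR with all 12 libraries in 1 fit (-0.48, adjusted p = 0.0315), where 3 of 8 members and 20% of genes passed. With the library number as a block it passed by edgeR against WT (log2 -0.46, adjusted p = 0.0276) and against STAT3-/- CD4+ cells (log2 -0.41, adjusted p = 0.0420). Dnmt3b (chr2:153649449-153687730, plus strand) was 16.8 and 21.4 CPM for WT, 19.8 and 22.3 for STAT3-/- and 17.04 and 20.3 for STAT3-/-PD-1-/- CD4+ libraries, and 27.1 and 28.7, 28.8 and 28.00 and 26.2 and 32.4 in CD8+ libraries. Its differences of STAT3-/-PD-1-/- from STAT3-/- cells were -0.16 in CD4+ and 0.04 in CD8+ cells, and those of Dnmt3a -0.41 and -0.06. The 3 genotypes of Dnmt3b overlapped within each subset, and its differences from WT were between -0.02 and 0.14 (log2). All 6 CD8+ libraries lay above all 6 CD4+ libraries, and the share of all genes with such a split was not counted.

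None of the TET genes passed between genotypes by edgeR, with or without the block. Tet1 (chr10:62804570-62887324, minus strand), at the low counts given above, was 2.48 and 3.05 CPM in WT CD4+ libraries, 3.93 and 4.52 in STAT3-/- and 3.29 and 3.002 in STAT3-/-PD-1-/-. In CD8+ libraries it was 3.16 and 2.93, 2.27 and 3.07 and 1.73 and 1.98 CPM. The STAT3-/- libraries were the highest among CD4+ cells and the STAT3-/-PD-1-/- libraries the lowest among CD8+ cells, where the difference from WT was log2 -0.72 ± 0.29 (SE), adjusted p = 0.131 by edgeR. Tet2 (chr3:133463677-133544390, minus strand) was 132 and 188 CPM for WT, 101 and 136 for STAT3-/- and 109.8 and 136 for STAT3-/-PD-1-/- CD4+ libraries, and 103 and 164, 98.3 and 117 and 105 and 126 in CD8+ libraries. Library 2 was above library 1 in all 6 groups, by 0.25 to 0.67 on the log2 scale, and the genotypes overlapped. Its differences from WT were -0.43 and -0.37 in CD4+ cells and -0.31 and -0.22 in CD8+ cells, for STAT3-/- and STAT3-/-PD-1-/- in turn. Tet3 (chr6:83362374-83456392, minus strand) was 169 and 257 CPM for WT, 187 and 285 for STAT3-/- and 200.3 and 158 for STAT3-/-PD-1-/- CD4+ libraries, which overlapped. Its CD8+ values were 154 and 182, 152 and 173 and 144 and 130.5 CPM, with the double-deficient libraries lowest (log2 -0.30 ± 0.13 (SE), adjusted p = 0.164 against WT). Between STAT3-/-PD-1-/- and STAT3-/- cells, in CD4+ and CD8+ cells in turn, Tet1 differed by -0.41 and -0.53, Tet2 by 0.06 and 0.10, and Tet3 by -0.39 and -0.25 (log2). As compared with WT, Tet1 differed by 0.61 and -0.19 in STAT3-/- cells and by 0.19 in STAT3-/-PD-1-/- CD4+ cells, and Tet3 by 0.14, -0.05 and -0.24. Dnmt3a differed by -0.05 and -0.16 in STAT3-/- cells.

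Downstream of the TET enzymes, 3 of 14 genes of active demethylation and base excision repair were higher in STAT3-/-PD-1-/- than in WT CD4+ cells (Ung, Neil3 and Parp1), and in CD8+ cells 3 were higher (Ung, Apex1 and Parp1) and 1 lower (Gadd45g). Of all genes, 12.9% passed in either direction in CD4+ and 17.2% in CD8+ cells. Ung, the uracil-DNA glycosylase, was 15.8 and 16.5 CPM for WT, 17.7 and 15.97 for STAT3-/- and 39.8 and 45.7 for STAT3-/-PD-1-/- CD4+ libraries (log2 1.41 ± 0.17 (SE), adjusted p = 0.00491 against WT by edgeR), and the CD8+ difference was 1.02 (adjusted p = 0.0210). Apex1, the abasic site endonuclease, was higher against STAT3-/- by 1.25 in CD4+ and 1.005 in CD8+ cells (adjusted p = 0.0318 and 0.00975). Tdg, the glycosylase that removes the bases that the TET enzymes oxidize, differed from WT by 1.09 and 0.20 and did not pass (adjusted p = 0.144 and 0.847). The median over the 14 was -0.03 in CD4+ and 0.12 in CD8+ cells.

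Ezh2 (chr6:47530274-47595030, minus strand) was 136 and 93.6 CPM in WT CD4+ libraries, 186 and 155 in STAT3-/- and 239 and 143 in STAT3-/-PD-1-/-. In CD8+ libraries it was 192 and 126, 272 and 214 and 274 and 168 CPM. Library 1 was above library 2 in all 6 groups, by 0.26 to 0.74 on the log2 scale. WT libraries lay below both other genotypes in CD4+ cells and below STAT3-/- in CD8+ cells, whereas WT and STAT3-/-PD-1-/- CD8+ libraries overlapped. None of the differences passed in the edgeR fits of 6 libraries. As compared with WT they were log2 0.57 ± 0.27 (SE), adjusted p = 0.546 for STAT3-/- and log2 0.74 ± 0.28 (SE), adjusted p = 0.123 for STAT3-/-PD-1-/- CD4+ cells, and 0.61 and 0.47 for CD8+ cells (adjusted p = 0.497 and 0.289). Without 1 library the STAT3-/- values spanned 0.32 to 0.86 in CD4+ and 0.32 to 0.96 in CD8+ cells. Those of STAT3-/-PD-1-/- cells spanned 0.33 to 1.06 and 0.057 to 0.81. Taken between libraries of the same number, the STAT3-/- differences from WT were 0.46 and 0.73 in CD4+ and 0.50 and 0.77 in CD8+ cells, and the STAT3-/-PD-1-/- ones 0.82 and 0.61 and 0.51 and 0.42, all above 0. With the library number as a block, those of STAT3-/-PD-1-/- cells passed by edgeR (log2 0.73, adjusted p = 0.00768 in CD4+ and log2 0.46, adjusted p = 0.0325 in CD8+ cells). Those of STAT3-/- cells passed under none of the alternatives run (lowest adjusted p = 0.0700 and 0.113). The labels do not say what the library number stands for, but the titles number the 6 libraries 1 in 1 series and the 6 libraries 2 in another, and the study's methods for T cell receptor sequencing speak of 2 batches of pooled mice. Whether these are the batches of the RNA-Seq libraries is not stated. Between STAT3-/-PD-1-/- and STAT3-/- cells Ezh2 differed by 0.17 in CD4+ and -0.14 in CD8+ cells (adjusted p = 0.709 and 0.755).

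Ezh1, the paralog that can replace EZH2 in PRC2, was measured beside it. It was 94.7 and 112 CPM for WT, 82.5 and 111 for STAT3-/- and 62.1 and 67.4 for STAT3-/-PD-1-/- CD4+ libraries, and 73.2 and 87.7, 67.9 and 86.99 and 55.9 and 52.8 in CD8+ libraries. The STAT3-/-PD-1-/- libraries were below the other 4 in each subset. Against WT the difference passed in CD8+ cells (log2 -0.57 ± 0.16 (SE), adjusted p = 0.0479 by edgeR) and not in CD4+ cells (-0.67, adjusted p = 0.0587). The core subunits Eed (0.20 and 0.26) and Suz12 (0.58 and 0.53) did not pass against WT. Of 11 PRC2 partner genes, 2 were higher and 2 lower in STAT3-/-PD-1-/- than in WT CD4+ cells, and 1 was higher and 3 lower in CD8+ cells (7.21% and 5.65% of all genes in CD4+, 9.01% and 8.21% in CD8+ cells), with medians of 0.20 and 0.26. Rbbp7, the histone chaperone subunit, was higher in both subsets (0.85 and 0.75, adjusted p = 0.0128 and 0.0197), and Phf19, a Polycomb-like accessory subunit, in CD4+ cells (0.77, adjusted p = 0.0263).

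The accessory subunits that fell were Jarid2 and Phf1. Jarid2, which helps PRC2 bind chromatin, was 164 and 166 CPM for WT, 163 and 155 for STAT3-/- and 97.5 and 90.03 for STAT3-/-PD-1-/- CD4+ libraries, and 144 and 122, 138 and 116 and 76.6 and 72.1 in CD8+ libraries. The double-deficient libraries were the lowest in each subset (log2 -0.81 ± 0.14 (SE), adjusted p = 0.0117 and log2 -0.85 ± 0.14 (SE), adjusted p = 0.0114 against WT by edgeR). Phf1, another Polycomb-like subunit, differed from STAT3-/- by -1.05 and -0.997 (adjusted p = 0.0228 and 0.00893). Epop, a subunit found with EZH2 in some PRC2 complexes, was higher against STAT3-/- in CD8+ cells (0.70, adjusted p = 0.0411). The H3K27 demethylases did not pass in the edgeR fits of 6 libraries. Kdm6a differed from WT by -0.24 and -0.21 in double-deficient CD4+ and CD8+ cells. Kdm6b was 349 and 100.4 CPM for WT, 244 and 80.1 for STAT3-/- and 90.3 and 46.7 for STAT3-/-PD-1-/- CD4+ libraries, and 220.0 and 49.04, 192 and 46.5 and 53.5 and 34.8 in CD8+ libraries. Library 1 exceeded library 2 in all 6 groups, and the differences from WT in double-deficient cells of -1.71 and -1.62 did not pass without a block (adjusted p = 0.147 and 0.202 by edgeR). Between libraries of the same number, each double-deficient library was below the WT library in both subsets. A value of Kdm6b with the library number as a block is not given here.

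**Figure D3:**
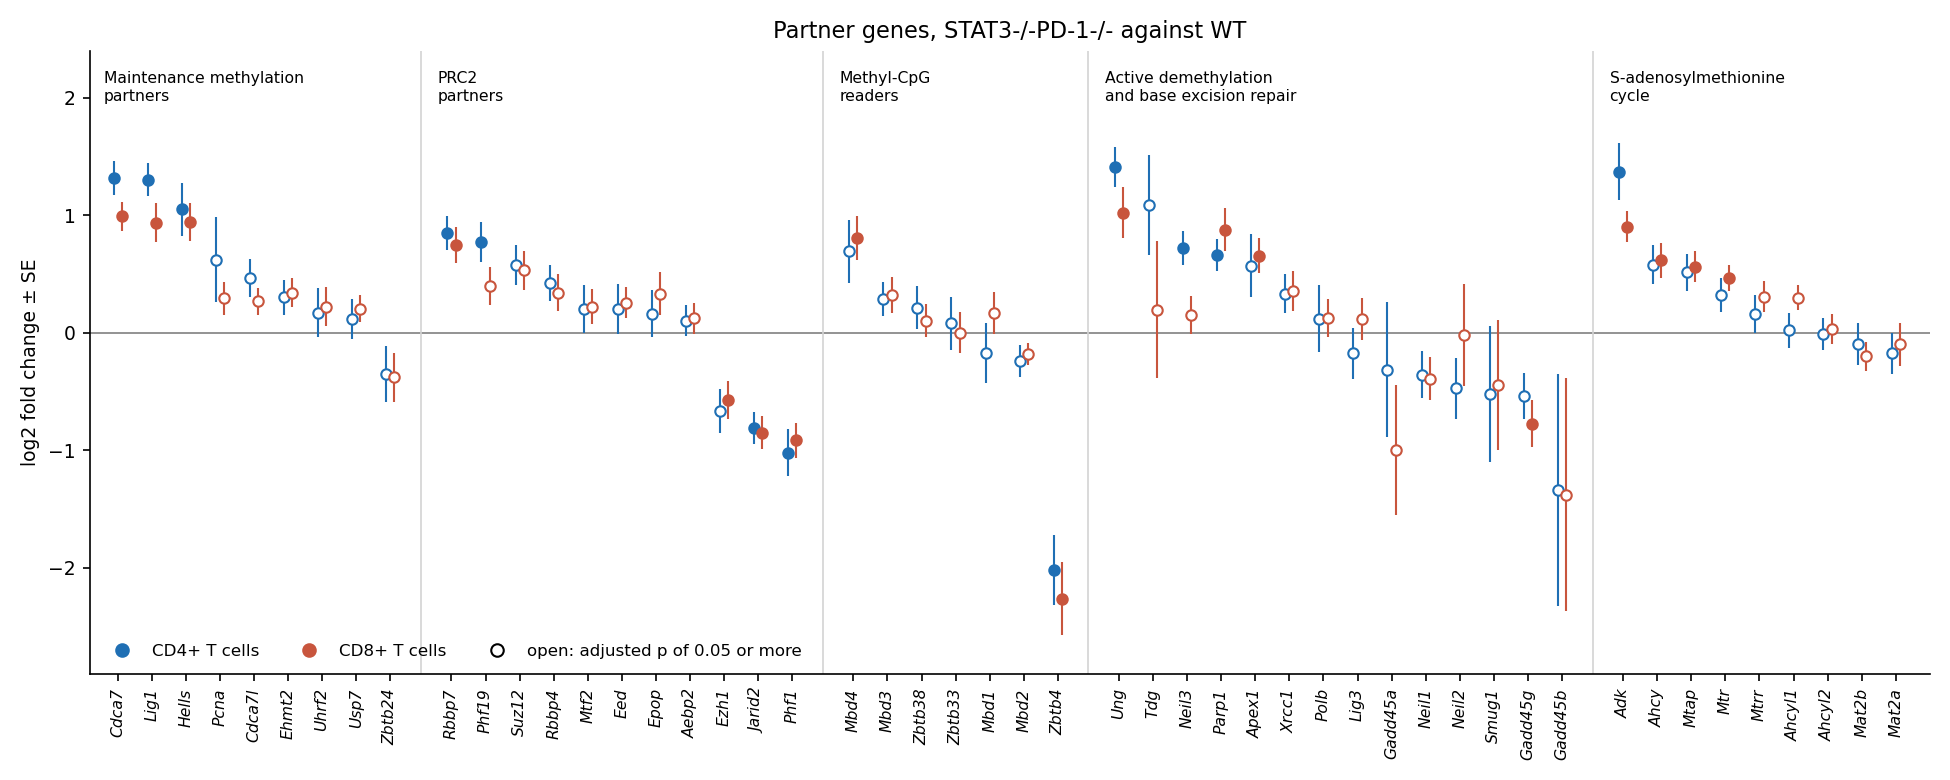
Log2 fold change ± SE of STAT3-/-PD-1-/- against WT for each tested partner gene, by role and ordered by the CD4+ value, with filled points at an adjusted p under 0.05 by edgeR. Zbtb4 sits lowest, at -2.02 (CD4+) and -2.26 (CD8+), and Ung, Adk, Cdca7 and Lig1 are the highest filled CD4+ points.

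Of 19 subunits of Polycomb repressive complex 1, which ubiquitinates histone H2A, 0 passed between STAT3-/-PD-1-/- and WT CD4+ cells (12.9% of all genes) and 1 in CD8+ cells (17.2%), Kdm2b, a CpG island–binding subunit (0.59, adjusted p = 0.0191 by edgeR). Their medians were -0.03 in both. Of 7 readers of methylated CpG sites, 0 were higher and 1 lower in double-deficient CD4+ cells, and 1 was higher and 1 lower in CD8+ cells, beside the shares of all genes given for PRC2. Zbtb4, a zinc finger repressor that binds methylated DNA, was 35.4 and 38.1 CPM for WT, 33.6 and 46.2 for STAT3-/- and 11.7 and 6.405 for STAT3-/-PD-1-/- CD4+ libraries, and 24.4 and 32.4, 22.9 and 32.2 and 7.63 and 4.28 in CD8+ libraries. The double-deficient libraries were far below the other 4 in each subset, with log2 -2.02 ± 0.30 (SE), adjusted p = 0.00840 and log2 -2.26 ± 0.31 (SE), adjusted p = 0.00716 against WT. Mbd4, a glycosylase with a methyl-CpG-binding domain, was higher in CD8+ cells (0.80, adjusted p = 0.0285). Of the 9 tested genes of the S-adenosylmethionine cycle, which supplies the methyl group to the DNA methyltransferases and to EZH2, 1 was higher in double-deficient CD4+ cells (7.21% of all genes) and 4 in CD8+ cells (9.01%). Adk, the adenosine kinase that clears a product of the cycle, was higher in both (1.37 and 0.90, adjusted p = 0.0139 and 0.00794), whereas Mat2a, the methionine adenosyltransferase of T cells, differed by -0.17 and -0.10 and did not pass.

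CD8+ and CD4+ cells of 1 genotype were compared in a fit of all 12 libraries. The maintenance pair was higher in CD8+ cells of WT and of STAT3-/- donors. Dnmt1 was higher in WT CD8+ than in WT CD4+ cells by 1.57-fold (log2 0.65 ± 0.14 (SE), adjusted p = 0.0142 by edgeR) and in STAT3-/- cells by 1.58-fold (log2 0.66 ± 0.14 (SE), adjusted p = 0.0144). Uhrf1 was higher by 1.71-fold (log2 0.78 ± 0.13 (SE), adjusted p = 0.00404) and 1.69-fold (log2 0.76 ± 0.13 (SE), adjusted p = 0.00516). In STAT3-/-PD-1-/- cells neither passed, with 0.38 for Dnmt1 and 0.34 for Uhrf1 (adjusted p = 0.201 and 0.224). In WT cells 2 of 8 members passed where 10.5% of genes did, in STAT3-/- cells 2 of 8 (9.62%), and in STAT3-/-PD-1-/- cells 0 of 8 (4.14%). In the last, 4 members and 14.7% of genes were under an unadjusted p of 0.05 by edgeR, and DESeq2, which called 6.15% of genes, called 1, Dnmt3b (adjusted p = 0.0155). In WT cells DESeq2, which called 12.3% of genes there, called Dnmt3b as well (adjusted p = 0.0420). The edgeR differences of Dnmt3b were 0.54, 0.44 and 0.65 (log2) for WT, STAT3-/- and STAT3-/-PD-1-/- cells in turn, and those of Ezh2 0.47, 0.52 and 0.21. Dnmt3a differed by -0.25, -0.35 and 0.01, Tet1 by 0.14, -0.66 and -0.76, Tet2 by -0.26, -0.14 and -0.09 and Tet3 by -0.35, -0.53 and -0.39, and none of these passed. The Dnmt1 call was lost without CD4+ library 1 or CD8+ library 1 in WT cells (adjusted p = 0.0863 and 0.0982) and in STAT3-/- cells (0.0808 and 0.106), and the Uhrf1 call in STAT3-/- cells without CD8+ library 1 (0.0544).

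CD8+ cells were taken from the livers that gave the CD4+ cells, per the study's supplement. It is not stated that the same number marks the same pool. Deviations from the group mean also correlated between genotypes with the same number, at 0.058 to 0.668 within a subset. CD4+ and CD8+ libraries of 1 genotype and number had deviations that correlated at 0.592 to 0.677. With these treated as pairs in a block, more members passed: 5 of 8 in WT cells (24.3% of genes), 6 of 8 in STAT3-/- cells (24.9%) and 3 of 8 in STAT3-/-PD-1-/- cells (14.4%). Dnmt3b was then higher in CD8+ cells of all 3 genotypes, with log2 0.55, adjusted p = 0.00778 for WT, log2 0.44, adjusted p = 0.0213 for STAT3-/- and log2 0.64, adjusted p = 0.00629 for STAT3-/-PD-1-/- cells. Ezh2 was higher in WT (log2 0.46, adjusted p = 0.00310) and STAT3-/- cells (log2 0.51, adjusted p = 0.00199). Uhrf1 passed in all 3 genotypes, also in double-deficient cells (log2 0.34, adjusted p = 0.0331), and Dnmt1 in WT and STAT3-/- cells. The TET genes that passed were lower in CD8+ cells: Tet2 in WT (log2 -0.28, adjusted p = 0.0439), Tet1 in STAT3-/- (log2 -0.66, adjusted p = 0.0381) and STAT3-/-PD-1-/- (log2 -0.76, adjusted p = 0.0459), and Tet3 in STAT3-/- cells (log2 -0.51, adjusted p = 0.0210).

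Whether a genotype difference itself differed between subsets was tested as an interaction. For STAT3-/- against WT, STAT3-/-PD-1-/- against WT and STAT3-/-PD-1-/- against STAT3-/-, 0 of 8 members passed in each by edgeR (0%, 0.00811% and 0% of genes), and 1, 2 and 1 members were under an unadjusted p of 0.05, beside 1.85%, 4.43% and 3.59% of genes. DESeq2 called 0 of 8 in each (0.0405%, 0.608% and 0.197% of genes). The lowest p-values belonged to Tet1 and Uhrf1. The Tet1 difference of STAT3-/-PD-1-/- from WT was -0.90 in CD8+ minus CD4+ cells on the log2 scale (adjusted p = 0.893), and that of Uhrf1 was -0.43 (adjusted p = 1.00). For STAT3-/- against WT that of Tet1 was -0.79 (unadjusted p = 0.0412 by edgeR). For STAT3-/-PD-1-/- against STAT3-/- that of Uhrf1 was -0.42 (unadjusted p = 0.0438). The other 6 members lay between -0.31 and 0.36 in the 3 interactions. Among all genes 1 passed, Ccl5, a chemokine of effector T cells, with a STAT3-/-PD-1-/- against WT difference that was -2.35 in CD8+ minus CD4+ cells (adjusted p = 0.000614). It was named after its value was seen.

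**Figure D4:**
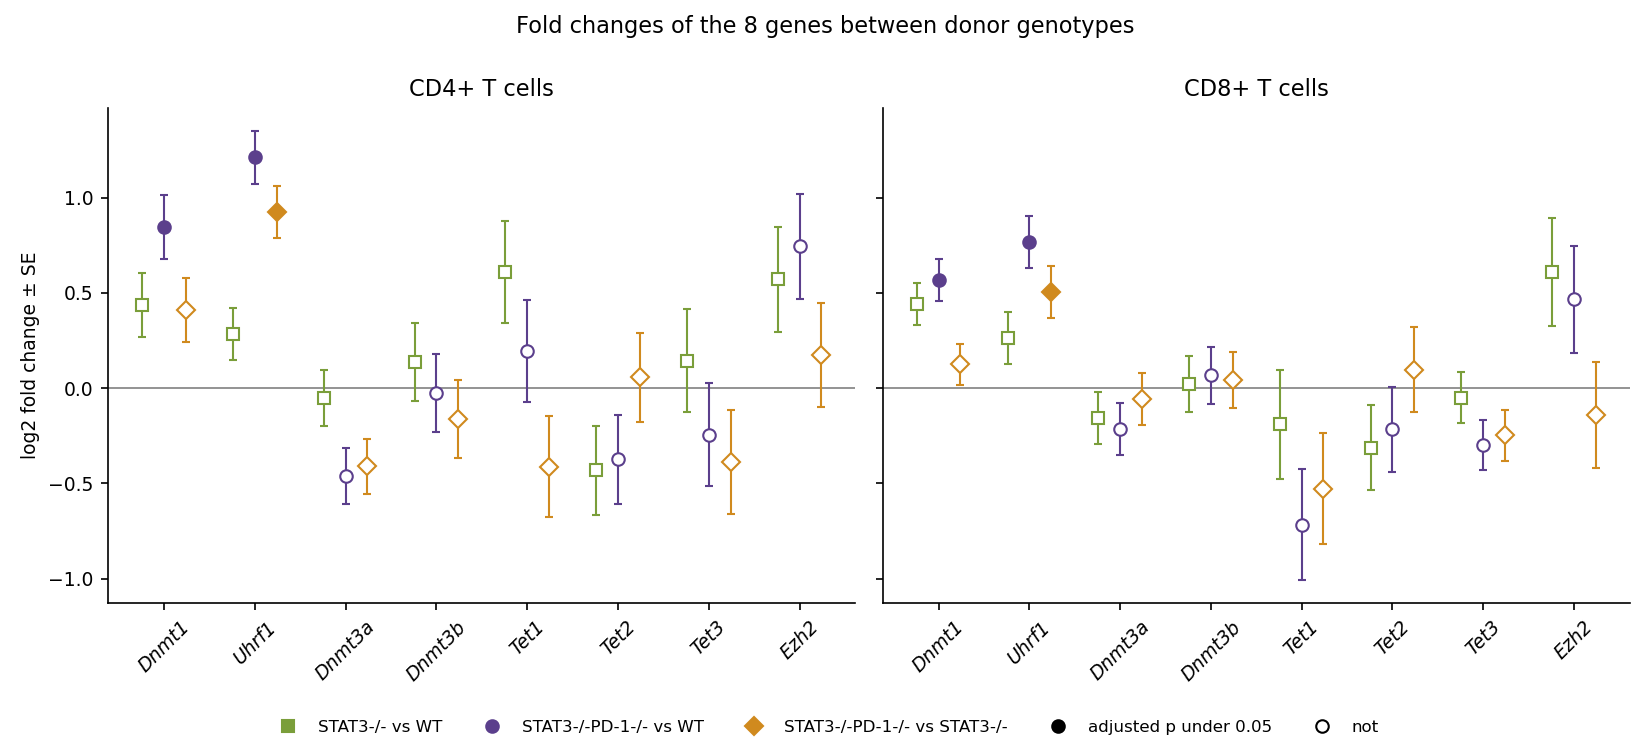
Log2 fold change ± SE of the 8 genes in 3 comparisons of donor genotypes, CD4+ on the left and CD8+ on the right, with filled symbols at an adjusted p under 0.05 by edgeR. The filled symbols belong to Dnmt1 and Uhrf1, the highest being Uhrf1 in STAT3-/-PD-1-/- against WT CD4+ cells at 1.21.

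Since several members are known to follow the cell cycle, their values were set beside those of 30 DNA replication genes. In STAT3-/-PD-1-/- against WT cells 26 of 30 replication genes were higher in CD4+ cells (7.21% of all genes) and 21 in CD8+ cells (9.01%), with 0 lower, and medians of 1.01 and 0.68. Against STAT3-/- cells 19 and 9 were higher (6.05% and 8.76% of all genes), and in STAT3-/- against WT cells 0 of 30 passed in either subset (medians 0.19 and 0.27). In CD8+ against CD4+ cells 16 passed in WT (4.91% of all genes higher) and 21 in STAT3-/- cells (4.81%), all higher, and 0 in STAT3-/-PD-1-/- cells. The replication genes that differed most were Gins1 (1.43 and 0.97) and Mcm10 (1.33 and 0.995), parts of the replicative helicase and its loading. Less the median of the 30, the STAT3-/-PD-1-/- against WT change of Uhrf1 was 0.20 in CD4+ and 0.09 in CD8+ cells, that of Dnmt1 -0.16 and -0.11, and that of Ezh2 -0.26 and -0.21. For Dnmt3a the same difference was -1.47 and -0.89, for Tet2 -1.38 and -0.89, and for Tet3 -1.25 and -0.98. In STAT3-/- against WT cells Ezh2 lay 0.39 and 0.34 and Dnmt1 0.25 and 0.18 above the replication median. The part of cell division in the results on the 8 genes was not tested.

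Correlations were taken over the 12 libraries, which fall into 6 groups by genotype and subset, so they include the differences between groups. With the mean of the 30 replication genes, log2 CPM correlated at 0.986 for Uhrf1, 0.895 for Dnmt1, 0.687 for Ezh2 and 0.473 for Dnmt3b. The values were -0.540 for Tet2, -0.623 for Tet1, -0.783 for Tet3 and -0.877 for Dnmt3a. Among the members themselves, Dnmt1 and Uhrf1 had 0.920, and Ezh2 and Tet2, the genes whose libraries 1 and 2 differed in opposite ways in every group, had -0.907. Among 11691 genes, genes whose pattern was among the 3 most like that of a member over the 12 libraries were Espl1 (0.987), Cit (0.984) and Ints7 (0.984) for Dnmt1, Lig1 (0.993), Nek2 (0.993) and Cenpn (0.989) for Uhrf1, and Atad2 (0.980) and Brip1 (0.960) for Ezh2. For Dnmt3a they were Tesk1 (0.942), Id3 (0.930) and Mgat5 (0.929), and for Dnmt3b Mical2 (0.977), Gm16702 (0.964) and Sirt3 (0.940). For Tet1 they were Trim30d (0.902), Gm36712 (0.897) and Capn3 (0.887), for Tet2 Accs (0.957), Scyl3 (0.951) and Rbak (0.951), and for Tet3 Wdr11 (0.944) and Tnpo2 (0.944). These correlations are descriptions over samples that fall into groups.

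**Figure D5:**
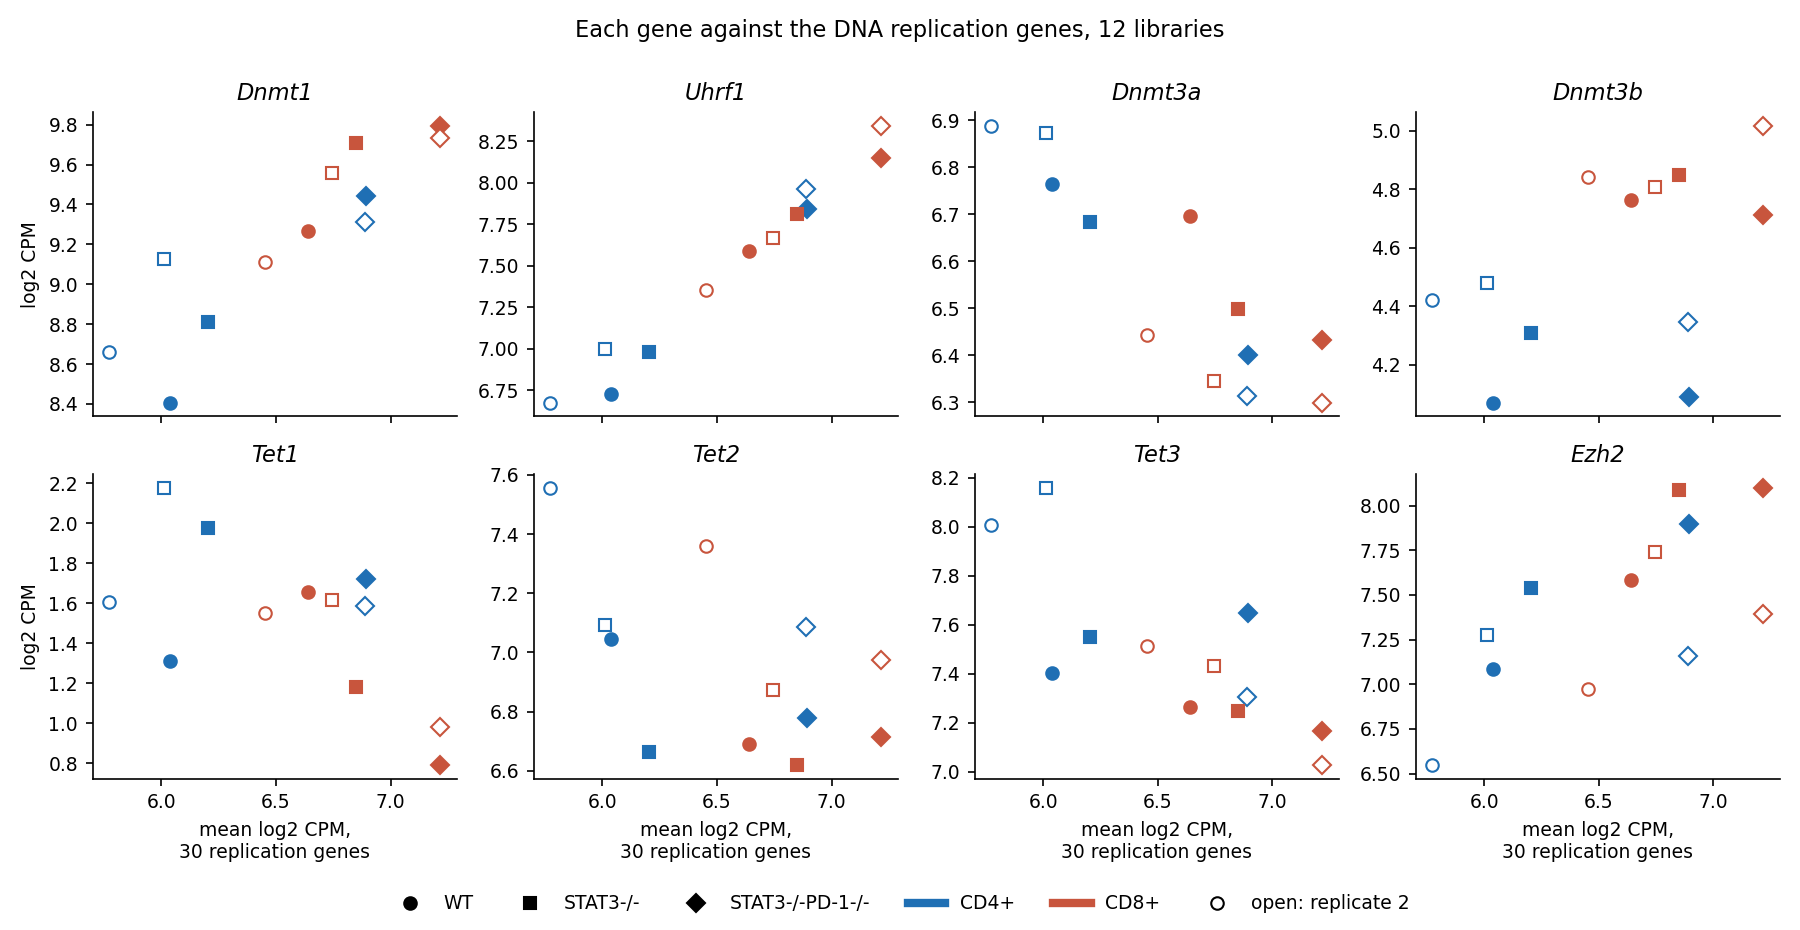
Log2 CPM of each gene (vertical axis) against the mean log2 CPM of 30 DNA replication genes (horizontal axis), 1 point per library, open for library 2. Uhrf1 follows the replication genes most closely (correlation 0.986), and the open Ezh2 points lie below and the open Tet2 points above the filled ones of their group.

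Ratios of deposited RPKM values within a library (mean ± SD, n = 2) gave the balance between members. The ratio of Dnmt1 to Dnmt3a was 5.14 ± 0.327 for WT, 7.197 ± 0.441 for STAT3-/- and 12.8 ± 0.255 for STAT3-/-PD-1-/- CD4+ cells, and 9.67 ± 0.471, 14.6 ± 0.0325 and 16.6 ± 0.611 in CD8+ cells, and the 3 genotypes did not overlap in either subset. The ratio of Ezh2 to Ezh1 was 1.79 ± 0.662, 2.88 ± 0.953 and 4.71 ± 1.92 in CD4+ cells and 3.198 ± 1.33, 5.101 ± 1.72 and 6.37 ± 1.92 in CD8+ cells. Library 1 was above library 2 in all 6 groups, and the STAT3-/-PD-1-/- and WT libraries did not overlap in either subset. The ratio of Uhrf1 to Dnmt1 was 0.489 ± 0.0730, 0.442 ± 0.0637 and 0.626 ± 0.0760 in CD4+ and 0.527 ± 0.0209, 0.466 ± 0.000453 and 0.606 ± 0.0755 in CD8+ cells. Both STAT3-/-PD-1-/- libraries were above the other 4 in each subset. Tet3 made up 44.6% to 61.6% and Tet1 0.498% to 1.01% of the summed RPKM of the 3 TET genes, and the remainder was Tet2.

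Genes that DNA methylation or PRC2 keep silent in most somatic cells were looked up last. Of 14 germline genes, 12 never reached 10 counts and 5 were at 0 in all 12 libraries (Mael, Asz1, Sycp1, Tex101 and Rpl10l). Of 22 Polycomb targets, 20 never reached 10 counts and 10 were at 0 throughout. The exceptions were low. Tex15, a germline gene, was 4.46 and 3.34 CPM for WT, 5.29 and 3.399 for STAT3-/- and 11.01 and 11.4 for STAT3-/-PD-1-/- CD4+ libraries (76 to 331 counts over the 12 libraries), and the double-deficient libraries were higher than WT in CD4+ (log2 1.53 ± 0.29 (SE), adjusted p = 0.0164 by edgeR) and CD8+ cells (1.06, adjusted p = 0.0144). Cdkn2a, which encodes the cell cycle inhibitors p16INK4A and ARF, was 1.62 and 1.95 CPM for WT, 2.997 and 2.77 for STAT3-/- and 7.07 and 8.05 for STAT3-/-PD-1-/- CD4+ libraries, and 1.84 and 1.77, 3.55 and 4.18 and 4.303 and 5.31 in CD8+ libraries. WT libraries were the lowest in each subset, and the difference of STAT3-/-PD-1-/- from WT passed in both (2.09 and 1.41, adjusted p = 0.00539 and 0.0157). Its counts were 36 to 201. Cdkn2b and Tdrkh, the other 2 genes that reached 10 counts, did not pass between genotypes. Of all genes, 7.21% were higher in STAT3-/-PD-1-/- than in WT CD4+ cells and 9.01% in CD8+ cells. Between subsets, 1 of the 2 tested germline genes was higher in CD8+ than in CD4+ cells of STAT3-/- donors (4.81% of all genes). The same count held for STAT3-/-PD-1-/- donors (1.65%).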

How the data were processed

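Per the study's methods, the authors aligned RNA-Seq reads to mm10 with STAR and counted them per gene with HTSeq, and the deposited table gives raw counts, RPKM values and an exon length for each of 25078 genes in 12 libraries. The strand setting of the counting and any handling of reads shared between genes are not given in the sources used here. For 3 of the 8 members another annotated gene overlaps the locus, none of which reached 10 counts. The growth and extraction texts of the labels describe another kind of sample and were not used, and groups were taken from the titles.

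Counts were tested with edgeR 4.0.16 (R 4.3.3): TMM scaling, filterByExpr (minimum count 10, total 15), quasi-likelihood test, Benjamini-Hochberg adjustment over all genes tested (11959 in CD4+, 12002 in CD8+ and 12334 in the fit of 12 libraries), with adjusted p under 0.05 as the threshold. The 6 libraries of a subset shared 1 fit with 3 residual degrees of freedom. Comparisons of CD8+ with CD4+ cells and the interactions used all 12 libraries. Alternatives were DESeq2 1.42.0, limma 3.58.1 on log2(RPKM + 1), other scalings, filters and sample sets, a replicate block and leaving out each library. Scripts were tested on simulated data. Per the study's supplement the CD8+ cells came from the livers that gave the CD4+ cells. The sources do not tie the library number to a pool. Deviations from group means of CD4+ and CD8+ libraries with the same number correlated at 0.592 to 0.677 within each of the 3 genotypes. Across both genotype and subset they correlated at 0.076 to 0.518, so these values do not tell a shared pool from a shared series. CD4+ and CD8+ libraries of the same genotype and number were treated as pairs, and the blocked values stand beside that comparison.

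All 8 members are named in every comparison but the interactions, where those under an unadjusted p of 0.05 are named and the others given as a range. Of each list, at most 2 that rose and 2 that fell by the most, among the genes past the threshold in STAT3-/-PD-1-/- cells, are named, with Ezh1, Kdm6a, Kdm6b, Stat3 and Pdcd1 always. Other genes named for their role are given with their values and were added after those were seen. Members, lists and tests were chosen with earlier results of these data known. The p-values without a block measure the spread between the 2 libraries of a group. That spread holds the difference between pools of recipients and any shift shared by library number, such as those of Ezh2 and Tet2. Promoter sequences are from RefSeq, assembly GRCm38.p6. Sequences of proteins were not used here. A few genes, among them 1 of the lists, are not reported here.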

Additional observations from a re-analysis of the deposited data

How the results depend on the processing

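Dnmt1 and Uhrf1 kept their direction between genotypes within a subset, and between subsets within a genotype, under every alternative run. Of 768 values of single members under other tools, scalings, filters and sample sets, 744 kept their direction and side of the threshold, 19 passed newly, 1 no longer passed and 4 changed sign, all near 0: Dnmt3b in STAT3-/-PD-1-/- against WT CD4+ cells (0.035) and Dnmt3a in STAT3-/-PD-1-/- against STAT3-/- CD8+ cells (0.024) with library totals, and with limma on RPKM the interactions of Uhrf1 for STAT3-/- against WT (0.0057) and Tet1 for STAT3-/-PD-1-/- against STAT3-/- (0.0089). The call lost was Uhrf1 in STAT3-/-PD-1-/- against STAT3-/- CD8+ cells under RLE scaling (0.49, adjusted p = 0.0516 by edgeR), which left 0 members there. DESeq2 called 1 member in STAT3-/- against WT CD8+ cells and 1 in CD8+ against CD4+ STAT3-/-PD-1-/- cells, and added Dnmt3b in WT cells and Dnmt3a in STAT3-/-PD-1-/- against WT CD4+ cells. The cause of these shifts was not tested. Of 480 values without 1 library, 387 kept direction and call, 20 no longer passed and 73 changed sign, the last of at most 0.26 in size and none past the threshold.

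Whether numbers shared within a subset pair the libraries is not settled: deviations from the group means correlated at 0.184 to 0.650 in the 3 pairs of CD4+ groups and at 0.058 to 0.668 in CD8+ groups, and no source used here says that the number marks a batch of these libraries. With the replicate block, 4 members passed in STAT3-/-PD-1-/- against WT CD4+ cells (Ezh2 and Dnmt3a added) and 2 against STAT3-/- (Dnmt3a added), with 3104 and 3105 genes, 3 in STAT3-/-PD-1-/- against WT CD8+ cells (Ezh2 added), and 303 genes in STAT3-/- against WT CD4+ cells. With CD4+ and CD8+ libraries of the same genotype and number as a block, 2991, 3077 and 1774 genes passed in CD8+ against CD4+ cells (5, 6 and 3 members). In the last 2 interactions 84 and 22 passed.

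Counts of genes depended on the setting. In STAT3-/- against WT CD4+ cells 40 became 271 (DESeq2), 165 (all genes with 1 count), 164 (12 libraries in 1 fit) or 1 (4 libraries), and in CD8+ cells 7 became 218, 66, 20 or 0, and 1 with library totals or with at least 10 counts in every library. STAT3-/-PD-1-/- gave 2462 against WT and 2299 against STAT3-/- CD4+ cells with 12 libraries in 1 fit, and 2100 against STAT3-/- by DESeq2. The interactions gave 5, 75 and 21 genes by DESeq2, and 50 and 9 in the last 2 with all genes of 1 count.

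Leaving out each library in turn, which leaves a group with 1 library assumed to vary like the others, gave 9 to 49 genes in STAT3-/- against WT CD4+ cells and 0 to 2 in CD8+ cells. STAT3-/-PD-1-/- against WT gave 62 to 676 genes with 0 to 2 members in CD4+ cells and 111 to 1107 genes with 0 to 2 members in CD8+ cells. Against STAT3-/- the numbers were 0 to 1185 genes with 0 to 1 members, and 2 to 1194 genes with 0 members. In CD8+ against CD4+ cells 611 to 819 (WT, 1 to 2 members), 428 to 775 (STAT3-/-, 0 to 2 members) and 163 to 200 genes (STAT3-/-PD-1-/-) passed. Log2 values that changed sign spanned, in STAT3-/- against WT, -0.15 to 0.043 for Dnmt3a, -0.029 to 0.32 for Dnmt3b and -0.19 to 0.47 for Tet3 in CD4+ cells, and -0.0063 to 0.050 for Dnmt3b, -0.43 to 0.010 for Tet1, -0.60 to 0.047 for Tet2 and -0.16 to 0.064 for Tet3 in CD8+ cells. In STAT3-/-PD-1-/- against WT they spanned -0.19 to 0.15 for Dnmt3b and -0.52 to 0.084 for Tet3 in CD4+ cells, and -0.10 to 0.19 for Dnmt3b and -0.51 to 0.13 for Tet2 in CD8+ cells. Against STAT3-/- the spans were -0.14 to 0.29 for Tet2 and -0.24 to 0.49 for Ezh2 in CD4+ cells, and -0.14 to 0.016 for Dnmt3a, -0.13 to 0.17 for Dnmt3b, -0.048 to 0.22 for Tet2 and -0.55 to 0.16 for Ezh2 in CD8+ cells. In CD8+ against CD4+ cells Tet2 spanned -0.64 to 0.028 (WT), -0.34 to 0.085 (STAT3-/-) and -0.24 to 0.076 (STAT3-/-PD-1-/-), and in the last Dnmt3a spanned -0.054 to 0.074 and Ezh2 -0.18 to 0.62. The interactions named above spanned -0.13 to 0.12 (Uhrf1) and -0.30 to 0.14 (Tet1). Other members changed sign in the interactions as well, such as Ezh2 for STAT3-/-PD-1-/- against WT (-0.65 to 0.15).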
